A study of Mus musculus with 12 samples.

Results

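The genes described here are 43 regulators of the actin cytoskeleton and of focal adhesions, taken by gene name from the 32285 genes of the count table: actin crosslinkers, nonmuscle myosins, other actin-binding proteins, focal adhesion proteins, the ERM proteins that tie actin to the membrane, and a few regulators such as Srf. Actins and smooth muscle genes were left out of the set. All 43 names were found, and all 43 genes passed the expression filter. Transcripts were counted in mouse embryonic stem cells of the IB10 line, which derives from 129/Ola mice, in 12 libraries of 4 genotypes with 3 libraries each. The genotypes were WT (wild type), DHX36 KO, FANCJ KO and DHX36/FANCJ KO, called the double knockout here. DHX36 is a helicase that unwinds G-quadruplexes, stacked structures of guanine-rich RNA and DNA, and FANCJ (gene Brip1) is a Fanconi anaemia helicase that unwinds them in DNA. All cells were grown without treatment on gelatin, in medium with serum, leukaemia inhibitory factor and conditioning by rat liver cells. Whether a knockout was 1 clone or several, and whether replicates were grown apart, is not stated in the labels. The p-values therefore measure only how far these libraries differ, which may be technical, and a genotype and its clone cannot be told apart.

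Actin filaments are built from monomers that profilin and thymosins hold ready, are capped, severed and branched by binding proteins, and are pulled on by nonmuscle myosin. At focal adhesions, integrins that bind the extracellular matrix are joined to filaments by talin, vinculin, alpha-actinin and filamin. The transcription factor SRF, with cofactors that are held back by free actin monomers, binds CArG boxes at many genes of this machinery, so that these genes are known to respond to the state of actin itself. Embryonic stem cells are soft cells with few stress fibres, and adhesion genes are known to rise when such cells flatten and differentiate.

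Total counts ran from 4284785 in a wild-type library to 14721931 in a double knockout library. Between libraries of a genotype the chi-square over genes was 3.94 to 12.2 times its degrees of freedom, so none was a repeat of another. Dhx36 stood at 50.1 to 57.6 CPM (counts scaled to the normalised library total) in wild type, 51.5 to 58.0 in FANCJ KO, 8.84 to 11.6 in DHX36 KO and 12.2 to 15.1 in the double knockout. Brip1 stood at 6.72 to 7.03 CPM in wild type, 6.45 to 7.42 in DHX36 KO, 0.129 to 0.619 in FANCJ KO and 0.178 to 0.744 in the double knockout, so each targeted gene was lowest where its knockout was labelled. All 10 stem cell markers checked, among them Pou5f1, Sox2 and Nanog, were detected in every genotype.

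Actin regulators and focal adhesion genes were mostly lower without DHX36 and lowest without both helicases, and few passed the test without FANCJ alone. In DHX36 KO 26 of 43 fell and 3 rose against wild type (adjusted p under 0.05), where 11.6% of all 12765 genes tested fell and 12.8% rose. The median log2 fold change of the 43 was -0.28, against 0.0045 over all genes tested. In FANCJ KO 0 fell and 3 rose (0.619% and 1.45% of all genes), with a median of 0.13. At an unadjusted p under 0.05, 13 of the 43 differed there, against 15% of all genes. DESeq2 likewise called none down there. In the double knockout 35 fell and 1 rose (17.3% and 16.6% of all genes), with a median of -0.65 against 0.0063. Falls of at least 2-fold were called for 12 members in the double knockout (4.86% of all genes) and for 1, Csrp1, in DHX36 KO (1.91%). For 26 members all 3 double knockout libraries lay below the other 9 libraries, as they did for 8.08% of all genes, and for 0 members did they lie above (7.35% of all genes). The libraries of DHX36 KO lay wholly below wild type for 28 members and wholly above for 5 (18.1% and 19.6% of all genes). Those of FANCJ KO did so for 2 and 10 (8.7% and 10.0%), and those of the double knockout for 35 and 1 (22.1% and 23.1%). These are bulk libraries, in which fewer cells of a type and less RNA per cell cannot be told apart. Most of the 43 stood high among the genes tested by mean level, in a range from percentile 29.8 (Itga5) to 99.8 (Pfn1). Genes with more counts pass such tests more easily, and the shares over all genes were not matched for level. The share of counts from mitochondrial genes was 10.0% to 10.6% in wild type, 11.01% to 12.3% in DHX36 KO, 11.2% to 11.5% in FANCJ KO and 11.9% to 13.2% in the double knockout, and its part in these changes was not tested.

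**Figure D1:**
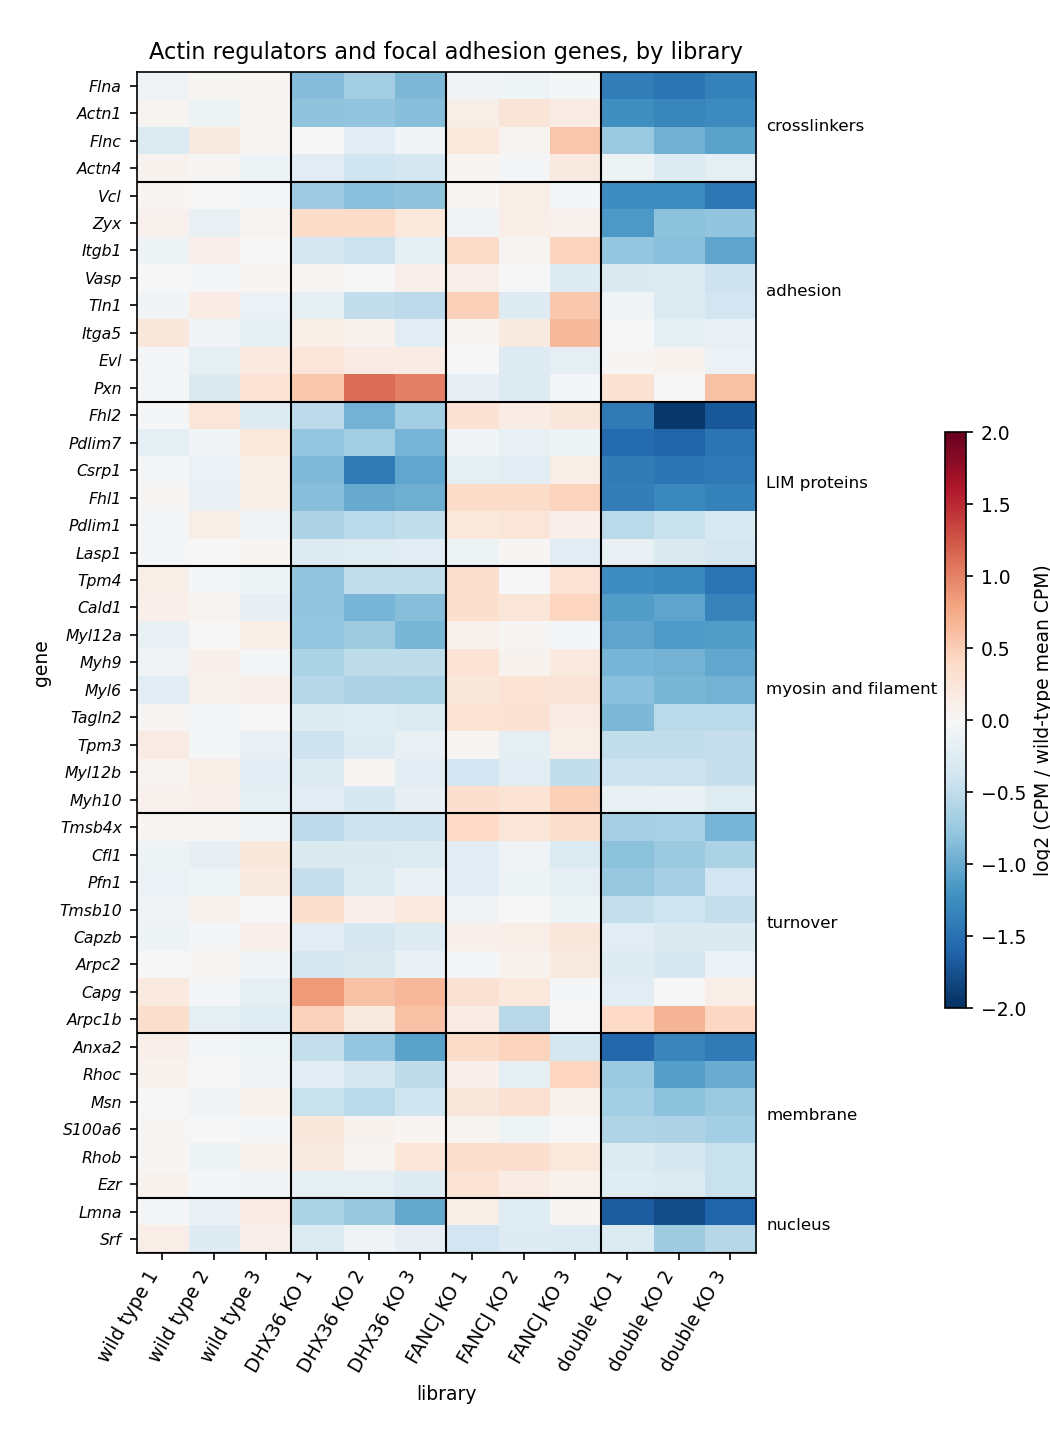
Level of each of the 43 genes (rows, grouped by role) in each of the 12 libraries (columns), as the log2 ratio of its CPM to the mean of the 3 wild-type libraries, from blue (lower) to red (higher). The 3 double knockout columns are the bluest, DHX36 KO columns are paler with red cells that include those of Pxn, Capg, Arpc1b and Zyx, and FANCJ KO columns are pale.

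**Figure D2:**
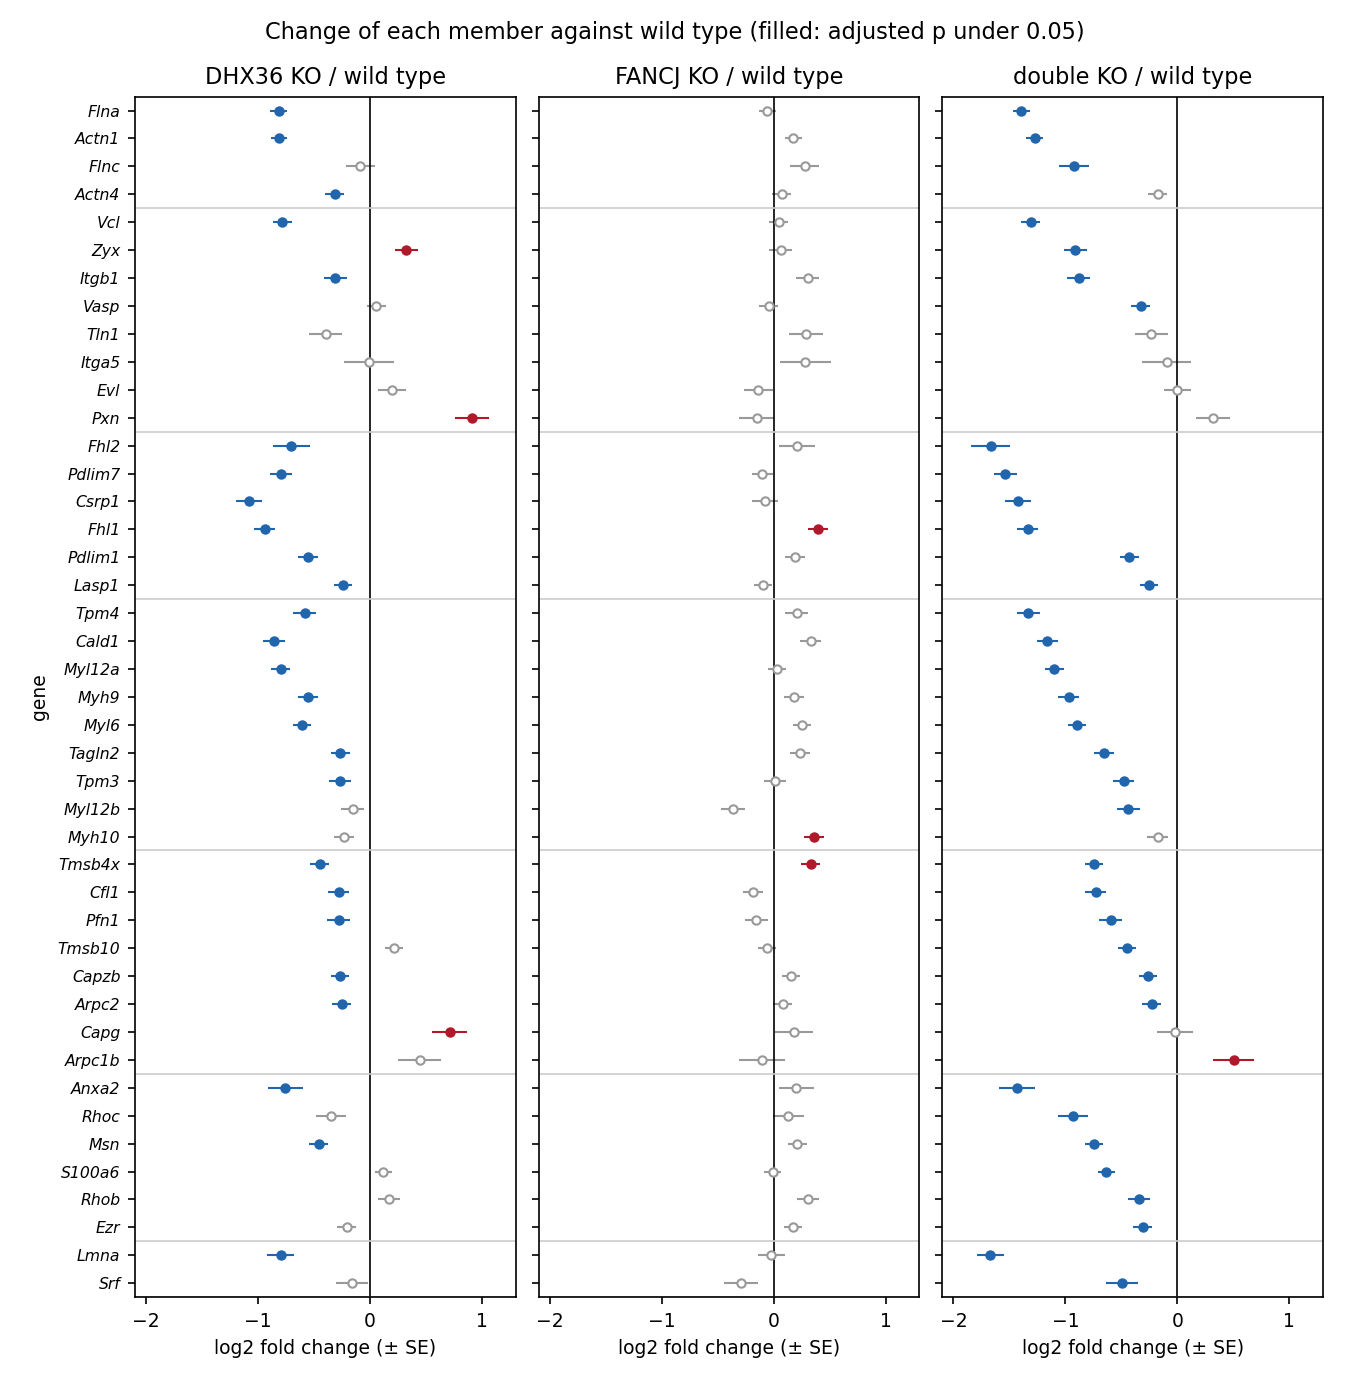
Log2 fold change against wild type with its standard error for each of the 43 genes in the DHX36, FANCJ and double knockout, with genes in rows grouped by role. Filled points passed an adjusted p under 0.05: 26 blue falls and 3 red rises in DHX36 KO, 3 red rises in FANCJ KO, and 35 blue falls and 1 red rise in the double knockout.

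Sequences at annotated starts of these genes were read from RefSeq for GRCm38.p6, as windows of 250 bases before to 50 bases after a start. Of the 43 members, 42 matched a window. A CArG box, the binding motif of SRF, which reads the same on both strands, was found in a window of 5 members (11.9%), against 1.54% of the genes tested that have a window and 1.81% of all 27025 genes with a window. These were Vcl, Myl6, Fhl1, Fhl2 and Srf itself. They are shown because all 5 fell in the double knockout and 4 of them, all but Srf, in DHX36 KO. The call of Srf rests on single libraries, as given with its values. Of the 37 members with a window and no CArG box in it, 30 fell in the double knockout and 22 in DHX36 KO. The CArG boxes are in capitals, and each window is written 5′ to 3′ on the strand of the gene.
Vcl, chr14:20929148-20929447, plus strand: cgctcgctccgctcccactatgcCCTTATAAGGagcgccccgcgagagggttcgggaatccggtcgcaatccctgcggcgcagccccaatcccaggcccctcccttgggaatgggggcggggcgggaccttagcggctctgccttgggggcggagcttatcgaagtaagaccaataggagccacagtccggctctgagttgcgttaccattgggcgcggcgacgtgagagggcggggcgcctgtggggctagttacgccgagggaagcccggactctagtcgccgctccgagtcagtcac
Myl6, chr10:128492960-128493259, minus strand: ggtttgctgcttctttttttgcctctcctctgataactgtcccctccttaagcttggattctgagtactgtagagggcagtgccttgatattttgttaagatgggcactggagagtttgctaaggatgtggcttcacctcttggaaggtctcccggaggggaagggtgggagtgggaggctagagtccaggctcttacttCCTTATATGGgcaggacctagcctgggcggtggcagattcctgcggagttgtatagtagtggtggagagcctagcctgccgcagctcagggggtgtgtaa
Fhl1, chrX:56779433-56779732, plus strand: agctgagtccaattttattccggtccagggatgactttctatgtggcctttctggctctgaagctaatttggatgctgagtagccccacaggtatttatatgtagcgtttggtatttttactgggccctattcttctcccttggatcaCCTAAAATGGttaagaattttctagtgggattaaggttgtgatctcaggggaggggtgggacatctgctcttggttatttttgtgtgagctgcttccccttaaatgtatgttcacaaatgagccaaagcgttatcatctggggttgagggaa
Fhl2, chr1:43163912-43164211, minus strand: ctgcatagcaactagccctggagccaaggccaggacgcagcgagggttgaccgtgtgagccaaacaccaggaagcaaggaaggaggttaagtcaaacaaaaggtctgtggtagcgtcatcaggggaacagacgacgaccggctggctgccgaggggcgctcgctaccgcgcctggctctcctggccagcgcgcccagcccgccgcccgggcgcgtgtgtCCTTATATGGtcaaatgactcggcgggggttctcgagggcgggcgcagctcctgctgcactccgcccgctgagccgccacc
Srf, chr17:46556113-46556412, minus strand: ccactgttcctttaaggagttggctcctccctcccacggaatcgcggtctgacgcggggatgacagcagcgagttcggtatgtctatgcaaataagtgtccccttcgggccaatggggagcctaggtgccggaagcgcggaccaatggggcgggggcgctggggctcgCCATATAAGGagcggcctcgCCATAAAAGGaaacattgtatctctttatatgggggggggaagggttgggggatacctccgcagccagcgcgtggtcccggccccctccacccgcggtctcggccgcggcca
The box of Vcl began 227 bases before the annotated start, that of Myl6 50, that of Fhl1 102 and that of Fhl2 31. Of these starts, those of Myl6, Fhl1 and Fhl2 lay inside the gene, downstream of its outermost start. Counts of transcript 3′ ends do not show which start was used. Srf held 2 boxes, 82 and 62 bases before its start. Myl6 and Fhl2 carried the same 10 letters. A further start of Fhl2 held another box, and a match in these letters is a description, not a site bound in these cells.

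G-quadruplex motifs bear on the helicases that were removed. The motif searched was 4 runs of at least 3 G with loops of 1 to 7 bases of any kind between them, on both strands. In the windows with a CArG box, the box and this motif shared no base. A promoter window of 21 of 42 members (50.0%) held one, against 32.4% of the tested genes with a window and 20.4% of all genes with a window. The median GC content of the windows was 62.7% for members and 61.0% for tested genes. In DHX36 KO 13 of the 21 members with the motif fell and 1 rose, and of the 21 without it also 13 fell and 1 rose. In the double knockout 18 of the 21 members with the motif fell and 1 rose, and of the 21 without it 17 fell and 0 rose. The interaction was called for 14 and 9 of them. These windows are printed for 2 genes whose transcripts fell without DHX36, Flna and Myh9, with motifs on either strand in capitals. That of Flna is at a start inside the gene, downstream of its outermost start.
Flna, chrX:74246485-74246784, minus strand: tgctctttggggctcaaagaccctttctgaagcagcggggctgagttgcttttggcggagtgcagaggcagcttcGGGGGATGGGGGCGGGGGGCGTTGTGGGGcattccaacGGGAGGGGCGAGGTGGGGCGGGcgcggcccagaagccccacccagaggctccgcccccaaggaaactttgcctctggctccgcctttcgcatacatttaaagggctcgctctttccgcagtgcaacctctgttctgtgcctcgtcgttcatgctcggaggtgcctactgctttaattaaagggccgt
Myh9, chr15:77842126-77842425, minus strand: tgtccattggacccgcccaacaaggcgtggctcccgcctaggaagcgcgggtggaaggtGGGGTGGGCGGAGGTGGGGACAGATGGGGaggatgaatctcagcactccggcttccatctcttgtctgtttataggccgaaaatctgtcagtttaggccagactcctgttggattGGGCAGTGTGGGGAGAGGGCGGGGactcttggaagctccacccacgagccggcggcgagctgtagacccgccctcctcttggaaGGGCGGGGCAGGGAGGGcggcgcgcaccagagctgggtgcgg
In transcripts, the motif was searched on the sense strand of GENCODE M21 basic models. It was present in the 5′ UTR of 6 of 43 members (14.0%, against 10.8% of tested genes) and in the coding sequence of 1, Srf (2.33% against 4.68%). Of the 6 with a 5′ UTR motif, 3 fell and 1 rose in DHX36 KO, with a median of -0.33. Of the 37 without one, 23 fell and 2 rose there, with a median of -0.28. In the double knockout 3 of the 6 fell and 0 rose, with a median of -0.23. Of the 37 without a 5′ UTR motif, 32 fell and 1 rose there, with a median of -0.73. The 3′ UTR held the motif in 9 members (20.9% against 12.7%): Arpc1b, Csrp1, Ezr, Flnc, Myl6, Pxn, Rhob, Tpm3 and Vasp. In DHX36 KO 3 of these 9 fell and 1 rose, with a median of -0.088, and of the 34 without it 23 fell and 2 rose, with a median of -0.33. In the double knockout 7 of these 9 fell and 1 rose, with a median of -0.34. Of the 34 without the motif 28 fell and 0 rose there, with a median of -0.74. These differences were not tested, and with loops of up to 12 bases 13 members held a 3′ UTR motif.

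Crosslinkers tie actin filaments into networks and bundles. Of the 4, 3 fell in each genotype without DHX36: Flna and Actn1 in both, Actn4 only in DHX36 KO and Flnc only in the double knockout. Flna (ENSMUSG00000031328, GRCm38 chromosome X, 74223461 to 74249820, minus strand) encodes filamin A, which crosslinks filaments and binds integrin tails. Its levels were 525, 561 and 561 CPM in wild type, 301, 338 and 296 in DHX36 KO, 530.3, 518 and 534 in FANCJ KO and 211, 200.2 and 216 in the double knockout. The libraries without DHX36 lay below all 6 libraries with it, and those of the double knockout were lowest. Against wild type it changed, on the log2 scale, by -0.82 (SE 0.08, adjusted p = 1.1e-07) in DHX36 KO and -1.39 (SE 0.08, adjusted p = 2.0e-11) in the double knockout, a 2.63-fold fall. Actn1 (chromosome 12, 80167547 to 80260371, minus strand), which encodes an alpha-actinin that bundles filaments and binds vinculin, was also lowest in the double knockout, with 882, 794 and 884 CPM in wild type, 489.7, 492 and 475 in DHX36 KO, 926, 1023 and 941 in FANCJ KO and 363, 344 and 352 in the double knockout. No 2 of the 4 genotypes overlapped for Actn1, and those with DHX36 stood above those without it. It changed by -0.81 (SE 0.08) in DHX36 KO and -1.27 (SE 0.08) in the double knockout. Flnc, a filamin best known from muscle, differed from these, with 49.4, 67.7 and 62.1 CPM in wild type, 59.5, 51.6 and 57.5 in DHX36 KO, 69.3, 62.2 and 87.5 in FANCJ KO and 35.5, 30.5 and 28.6 in the double knockout. Its DHX36 KO libraries lay among the wild-type ones (-0.088, SE 0.13, adjusted p = 0.671), while all 3 double knockout libraries lay below the other 9 (-0.92, SE 0.13, adjusted p = 1.3e-05). Actn4, the other nonmuscle alpha-actinin, changed by -0.32 (SE 0.08) in DHX36 KO, which passed the test, and by -0.18 (SE 0.08, adjusted p = 0.111) in the double knockout, which did not.

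The 8 adhesion genes moved in both directions. Vcl, Itgb1 and, in the double knockout, Zyx and Vasp fell, while Pxn and Zyx rose in DHX36 KO. Vcl (ENSMUSG00000021823, chromosome 14, 20929398 to 21033676, plus strand) encodes vinculin, which strengthens the talin-to-actin link under tension. It stood at 120.2, 116 and 114 CPM in wild type, 70.5, 65.5 and 66.9 in DHX36 KO, 119, 127 and 113 in FANCJ KO and 49.3, 48.8 and 42.7 in the double knockout. All 6 libraries without DHX36 lay below all 6 with it, and the change was -0.78 (SE 0.09) in DHX36 KO and -1.31 (SE 0.09) in the double knockout. Itgb1, the integrin beta chain shared by most fibronectin, laminin and collagen receptors, had 371, 426 and 395 CPM in wild type, 316, 296 and 349 in DHX36 KO, 516, 414 and 542 in FANCJ KO and 232, 224 and 192 in the double knockout. Its double knockout libraries lay below all others (-0.88, SE 0.10, adjusted p = 7.9e-07). The fall in DHX36 KO, -0.31 (SE 0.10), was smaller, and the call was lost without wild-type library 2 (0.106) or DHX36 KO libraries 1 or 2 (0.0650 and 0.119), the values in parentheses being adjusted p-values, here and below. Zyx (chromosome 6, 42349630 to 42360213, plus strand) encodes zyxin, which gathers at strained stress fibres, and had 114, 97.4 and 111 CPM in wild type, 139, 139.7 and 124 in DHX36 KO, 104, 118 and 114 in FANCJ KO and 48.4, 61.2 and 62.2 in the double knockout. It was highest in DHX36 KO and lowest in the double knockout, with no overlap between either group and wild type. The rise was 0.32 (SE 0.10, adjusted p = 0.0253) and was lost without wild-type library 2 (0.138) or DHX36 KO libraries 1 or 2 (0.0862 and 0.0785). The fall in the double knockout was -0.91 (SE 0.10, adjusted p = 6.3e-07).

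Pxn, the adhesion scaffold paxillin, had the largest rise of any member in DHX36 KO, 0.91 (SE 0.15, adjusted p = 1.3e-04). Its levels were 84.6, 71.8 and 105 CPM in wild type, 127, 189.6 and 175 in DHX36 KO, 77.7, 72.6 and 84.8 in FANCJ KO and 107, 87.8 and 131 in the double knockout, with DHX36 KO libraries above wild type and FANCJ KO, and the double knockout libraries overlapping both wild type and DHX36 KO (0.32, SE 0.15, adjusted p = 0.112 against wild type). Vasp, which promotes filament elongation, changed by -0.33 (SE 0.09) in the double knockout and was at 0.056 (SE 0.09, adjusted p = 0.683) in DHX36 KO. Its relative Evl, the integrin alpha chain Itga5 and the integrin activator Tln1 (talin) passed the test in neither. Their log2 fold changes were 0.19, -0.0086 and -0.40 in DHX36 KO and -0.0017, -0.10 and -0.24 in the double knockout. Itga5 was measured at 5.89 ± 0.879 CPM in wild type (SD, n = 3) and had the widest standard error of the 43 in DHX36 KO, 0.22.

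The 6 genes grouped here as LIM proteins encode adaptors that sit on stress fibres and adhesions. Zyx and Pxn, which also encode LIM-domain proteins, were counted with the adhesion genes and rose in DHX36 KO. All 6 of the LIM group fell in DHX36 KO and in the double knockout, with medians of -0.75 and -1.38. Fhl1 (ENSMUSG00000023092, chromosome X, 56731787 to 56793346, plus strand), a LIM-only protein, stood at 83.7, 75.1 and 89.2 CPM in wild type, 45.6, 41.0 and 42.0 in DHX36 KO, 106, 106 and 113 in FANCJ KO and 31.7, 33.7 and 32.5 in the double knockout. The 4 genotypes did not overlap: FANCJ KO was highest, then wild type, DHX36 KO and the double knockout. The changes against wild type were -0.94 (SE 0.09) in DHX36 KO, 0.39 (SE 0.09, adjusted p = 0.0239) in FANCJ KO and -1.34 (SE 0.09) in the double knockout. Fhl2 (chromosome 1, 43123074 to 43196984, minus strand), a LIM-only coactivator that binds integrins, had 17.9, 21.6 and 15.2 CPM in wild type, 12.7, 9.47 and 11.4 in DHX36 KO, 22.2, 20.2 and 21.5 in FANCJ KO and 6.83, 4.79 and 5.61 in the double knockout. This gene fell by 0.71 in DHX36 KO (adjusted p = 0.00340) and by 1.67 in the double knockout (adjusted p = 1.5e-07), without overlap with wild type. Pdlim7, a PDZ and LIM protein that binds tropomyosin, had 125, 136 and 164 CPM in wild type, 82.9, 87.1 and 74.5 in DHX36 KO, 136, 127 and 132 in FANCJ KO and 48.4, 46.5 and 51.2 in the double knockout, and its double knockout libraries lay below all others (-0.80, SE 0.10 in DHX36 KO and -1.54, SE 0.10 in the double knockout).

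Csrp1, which binds alpha-actinin and zyxin, had the largest fall of any member in DHX36 KO, -1.08 (SE 0.12, adjusted p = 5.9e-07). Its levels were 132, 123 and 147 CPM in wild type, 72.4, 50.5 and 65.3 in DHX36 KO, 119, 116 and 146 in FANCJ KO and 50.9, 48.9 and 49.9 in the double knockout. DHX36 KO library 2 was as low as the double knockout libraries, so that those groups overlapped, and both lay below wild type. Pdlim1, which binds alpha-actinin, changed by -0.55 (SE 0.09) in DHX36 KO and -0.43 (SE 0.09) in the double knockout. Lasp1, a membrane-edge adaptor, had the smallest falls of the 6, -0.24 (SE 0.08) and -0.25 (SE 0.08). Its call in DHX36 KO was lost without wild-type libraries 2 or 3 (0.0617 and 0.0751) or DHX36 KO libraries 1, 2 or 3 (0.0697, 0.0735 and 0.0685) and with no expression filter (adjusted p = 0.0594), and that in the double knockout without double knockout libraries 2 or 3 (0.0641 and 0.0769).

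Of the 9 genes of myosin and of filament-coating proteins, 7 fell in DHX36 KO and 8 in the double knockout. Tpm4 (chromosome 8, 72134975 to 72153142, plus strand), a tropomyosin that lies along the filament and gates myosin, stood at 442, 402 and 379 CPM in wild type, 236, 291 and 289.6 in DHX36 KO, 509, 407 and 495 in FANCJ KO and 173, 167 and 146 in the double knockout. The libraries without DHX36 lay below all libraries with it, with -0.58 (SE 0.10) in DHX36 KO and -1.33 (SE 0.10) in the double knockout. Cald1, caldesmon, which restrains the actomyosin ATPase, had 156, 149.9 and 129 CPM in wild type, 84.0, 75.8 and 80.2 in DHX36 KO, 182, 171 and 195 in FANCJ KO and 66.8, 70.2 and 57.5 in the double knockout and changed by -0.86 (SE 0.10) and -1.16 (SE 0.10). Again no library without DHX36 reached the range of those with it. Myh9, the heavy chain of nonmuscle myosin IIA, had 93.2, 106 and 95.8 CPM in wild type, 63.3, 69.0 and 69.2 in DHX36 KO, 119, 103 and 112 in FANCJ KO and 51.4, 51.2 and 47.8 in the double knockout, with -0.55 (SE 0.09) in DHX36 KO and -0.97 (SE 0.09) in the double knockout. Myh10, the heavy chain of nonmuscle myosin IIB, did not follow it. Its levels were 107, 108 and 88.5 CPM in wild type, 86.3, 81.3 and 90.2 in DHX36 KO, 128, 122 and 140.3 in FANCJ KO and 91.1, 91.8 and 85.8 in the double knockout, and it passed neither in DHX36 KO (-0.23, SE 0.09, adjusted p = 0.0728) nor in the double knockout (-0.18, SE 0.09, adjusted p = 0.148).

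Of the light chains, Myl12a and Myl6 fell in either genotype without DHX36. Myl12a, a regulatory light chain, had 783, 869.8 and 951 CPM in wild type, 507, 530.5 and 460.5 in DHX36 KO, 920.1, 879 and 855 in FANCJ KO and 418, 396 and 400.3 in the double knockout and changed by -0.80 (SE 0.08) in DHX36 KO and -1.10 (SE 0.08) in the double knockout, where no library overlapped wild type. Its neighbour Myl12b encodes a nearly identical protein, and reads of the pair may be exchanged. It was at -0.16 (SE 0.11, adjusted p = 0.306) in DHX36 KO and fell by 0.44 in the double knockout. Myl6, the essential light chain, had 1411, 1737 and 1741 CPM in wild type, 1098, 1063 and 1051 in DHX36 KO, 1909, 1962 and 1954 in FANCJ KO and 915, 861 and 849.9 in the double knockout, with changes of -0.61 (SE 0.08) and -0.90 (SE 0.08) and no overlap between libraries with and without DHX36. Tagln2, a transgelin that binds filaments, had 534, 515 and 519 CPM in wild type, 434, 439.7 and 429.9 in DHX36 KO, 631, 639 and 576 in FANCJ KO and 280.3, 358 and 359 in the double knockout. Its fall in the double knockout was -0.65 (SE 0.09); in DHX36 KO it was -0.27 (SE 0.09), and that call did not hold without wild-type libraries 1 or 2 (0.0801 and 0.0546) or DHX36 KO libraries 1, 2 or 3 (0.0600, 0.0652 and 0.0817). Tpm3, another tropomyosin, changed by -0.48 (SE 0.10) in the double knockout and by -0.27 (SE 0.10) in DHX36 KO. The latter call was lost without wild-type libraries 1 or 2 (0.227 and 0.0689) or DHX36 KO libraries 1 or 2 (0.171 and 0.0916), at equal depth (adjusted p = 0.0997), with only those genotypes fitted (adjusted p = 0.0729) and with a replicate block (adjusted p = 0.0582).

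Of the 8 genes of filament turnover, 5 fell and 1 rose in DHX36 KO, with a median of -0.26, and 6 fell and 1 rose in the double knockout, with a median of -0.36. Tmsb4x (chromosome X, 167207093 to 167209315, minus strand), thymosin beta 4, which sequesters actin monomers, had the largest fall of these 8 in the double knockout, -0.74 (SE 0.08, adjusted p = 5.2e-07). It stood at 1099, 1085 and 1026 CPM in wild type, 742, 802 and 804 in DHX36 KO, 1410.4, 1262 and 1361 in FANCJ KO and 672, 683 and 561 in the double knockout, in 4 ranges that did not overlap, highest in FANCJ KO. Tmsb10, a thymosin of the same kind, had 570.1, 633 and 596 CPM in wild type, 755, 641 and 688 in DHX36 KO, 569, 595 and 559.9 in FANCJ KO and 432, 453 and 431 in the double knockout. It was not called in DHX36 KO (0.21, SE 0.08, adjusted p = 0.0528), although its libraries there lay above wild type, and it fell by 0.45 in the double knockout. Cfl1, cofilin, which severs old filaments, and Pfn1, profilin, which delivers monomers, fell by 0.73 and 0.60 in the double knockout. In DHX36 KO Cfl1 was at -0.28 (SE 0.09), lost without wild-type library 3 (0.180) or DHX36 KO libraries 1, 2 or 3 (0.0574, 0.0703 and 0.0602), and Pfn1 at -0.28 (SE 0.10), lost without wild-type library 3 (0.199) or DHX36 KO libraries 1 or 2 (0.180 and 0.0894) and with only those genotypes fitted (adjusted p = 0.0589). Thymosin, cofilin, profilin and Myl6 genes are known to have processed pseudogene copies, which may share their reads.

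Capg, a gelsolin relative that caps filament ends, stood at 13.3, 11.3 and 10.3 CPM in wild type, 21.0, 17.5 and 18.4 in DHX36 KO, 14.4, 13.4 and 11.3 in FANCJ KO and 10.0, 11.7 and 12.8 in the double knockout. Its DHX36 KO libraries lay above all others (0.71, SE 0.16, adjusted p = 0.00208), and the double knockout overlapped wild type (-0.021, SE 0.16, adjusted p = 0.935). Capzb, a capping protein subunit, changed by -0.27 (SE 0.08) in DHX36 KO, lost without wild-type library 3 (0.0637) or DHX36 KO library 2 (0.0688), and by -0.26 (SE 0.08) in the double knockout, lost without wild-type library 3 (0.0635) or double knockout library 2 (0.0543). Arpc2 and Arpc1b encode subunits of the complex that branches filaments, and they moved in opposite directions. Arpc2 was at -0.25 (SE 0.08) in DHX36 KO, lost without wild-type libraries 1 or 2 (0.0627 and 0.0813) or DHX36 KO libraries 1 or 2 (0.1000 and 0.0890). It was at -0.23 (SE 0.08) in the double knockout, lost without wild-type libraries 1 or 2 (0.0806 and 0.107) or double knockout libraries 1 or 2 (0.101 and 0.148) and with no expression filter (adjusted p = 0.0648). Arpc1b was the only member to rise in the double knockout, from 12.5 ± 3.01 to 17.6 ± 2.01 CPM (SD, n = 3; 0.50, SE 0.18, adjusted p = 0.0393). That call was lost without wild-type libraries 2 or 3 (0.164 and 0.153) or double knockout library 2 (0.143), and at equal depth (adjusted p = 0.204). In DHX36 KO Arpc1b was at 16.7 ± 2.32 CPM, overlapping the double knockout, and was not called (0.44, SE 0.19, adjusted p = 0.0955).

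Of the 6 genes at the membrane, 2 fell in DHX36 KO and all 6 in the double knockout. Anxa2 (chromosome 9, 69453620 to 69491795, plus strand), an annexin that joins membranes to actin, stood at 129, 119 and 115 CPM in wild type, 86.9, 70.4 and 57.5 in DHX36 KO, 156, 164 and 94.5 in FANCJ KO and 40.5, 48.3 and 45.5 in the double knockout. No library without DHX36 reached the lowest library with it. The change was -0.76 (SE 0.16, adjusted p = 0.00123) in DHX36 KO and -1.43 (SE 0.16, adjusted p = 4.5e-07) in the double knockout. Msn, the ERM protein moesin, had 209, 203 and 219.9 CPM in wild type, 154, 144 and 159.8 in DHX36 KO, 246, 261 and 223 in FANCJ KO and 131, 119.6 and 126 in the double knockout and changed by -0.46 (SE 0.08) and -0.74 (SE 0.08). Ezr, ezrin of the same family, was at -0.21 (SE 0.08, adjusted p = 0.0692) in DHX36 KO and fell by 0.31 in the double knockout. S100a6, a calcium-binding protein that partners annexins, had 714, 703 and 689 CPM in wild type, 824, 737 and 722 in DHX36 KO, 726, 660.0 and 705 in FANCJ KO and 464, 457 and 436 in the double knockout. Its DHX36 KO libraries lay above wild type without a call (0.12, SE 0.08, adjusted p = 0.291), and it was lowest in the double knockout (-0.63, SE 0.08, adjusted p = 1.3e-06).

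Rhoc and Rhob encode small GTPases, which act on stress fibres and, for Rhob, on endosomes. Rhoc had 54.9, 52.5 and 49.7 CPM in wild type, 45.5, 41.5 and 36.7 in DHX36 KO, 56.3, 46.4 and 70.8 in FANCJ KO and 31.2, 24.5 and 26.4 in the double knockout, with -0.35 (SE 0.14, adjusted p = 0.0663) in DHX36 KO and -0.93 (SE 0.14, adjusted p = 1.6e-05) in the double knockout. Rhob had 49.6, 45.4 and 51.3 CPM in wild type, 55.3, 50.7 and 57.8 in DHX36 KO, 62.3, 61.3 and 56.5 in FANCJ KO and 40.2, 39.1 and 35.7 in the double knockout. Its FANCJ KO libraries lay above wild type and those of DHX36 KO overlapped it (0.17, SE 0.10, adjusted p = 0.232), and the double knockout lay below all others (-0.34, SE 0.10, adjusted p = 0.0100).

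Srf (ENSMUSG00000015605, chromosome 17, 46548329 to 46556175, minus strand), the transcription factor of the group, had 24.1, 18.6 and 23.7 CPM in wild type, 18.3, 21.0 and 19.7 in DHX36 KO, 17.0, 18.5 and 18.4 in FANCJ KO and 18.3, 13.5 and 15.0 in the double knockout. Its 3 double knockout libraries lay below those of wild type and DHX36 KO and overlapped those of FANCJ KO, which lay just below wild type. It fell by 0.49 on the log2 scale in the double knockout (adjusted p = 0.0103), which did not hold without wild-type library 1 (0.0550) or double knockout library 2 (0.0591), and was at -0.16 (SE 0.14, adjusted p = 0.443) in DHX36 KO. Lmna (chromosome 3, 88480147 to 88509956, minus strand), the gene of lamins A and C, whose amount in the nuclear envelope is known to follow tissue stiffness, had with Fhl2 the largest fall of any member in the double knockout. It stood at 66.0, 62.2 and 75.9 CPM in wild type, 43.7, 40.3 and 33.6 in DHX36 KO, 74.1, 57.7 and 68.9 in FANCJ KO and 21.7, 19.9 and 22.4 in the double knockout, and the libraries without DHX36 lay below all 6 with it. The change was -0.80 (SE 0.12, adjusted p = 4.0e-05) in DHX36 KO and -1.67 (SE 0.12, adjusted p = 1.1e-09) in the double knockout, a 3.18-fold fall.

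**Figure D3:**
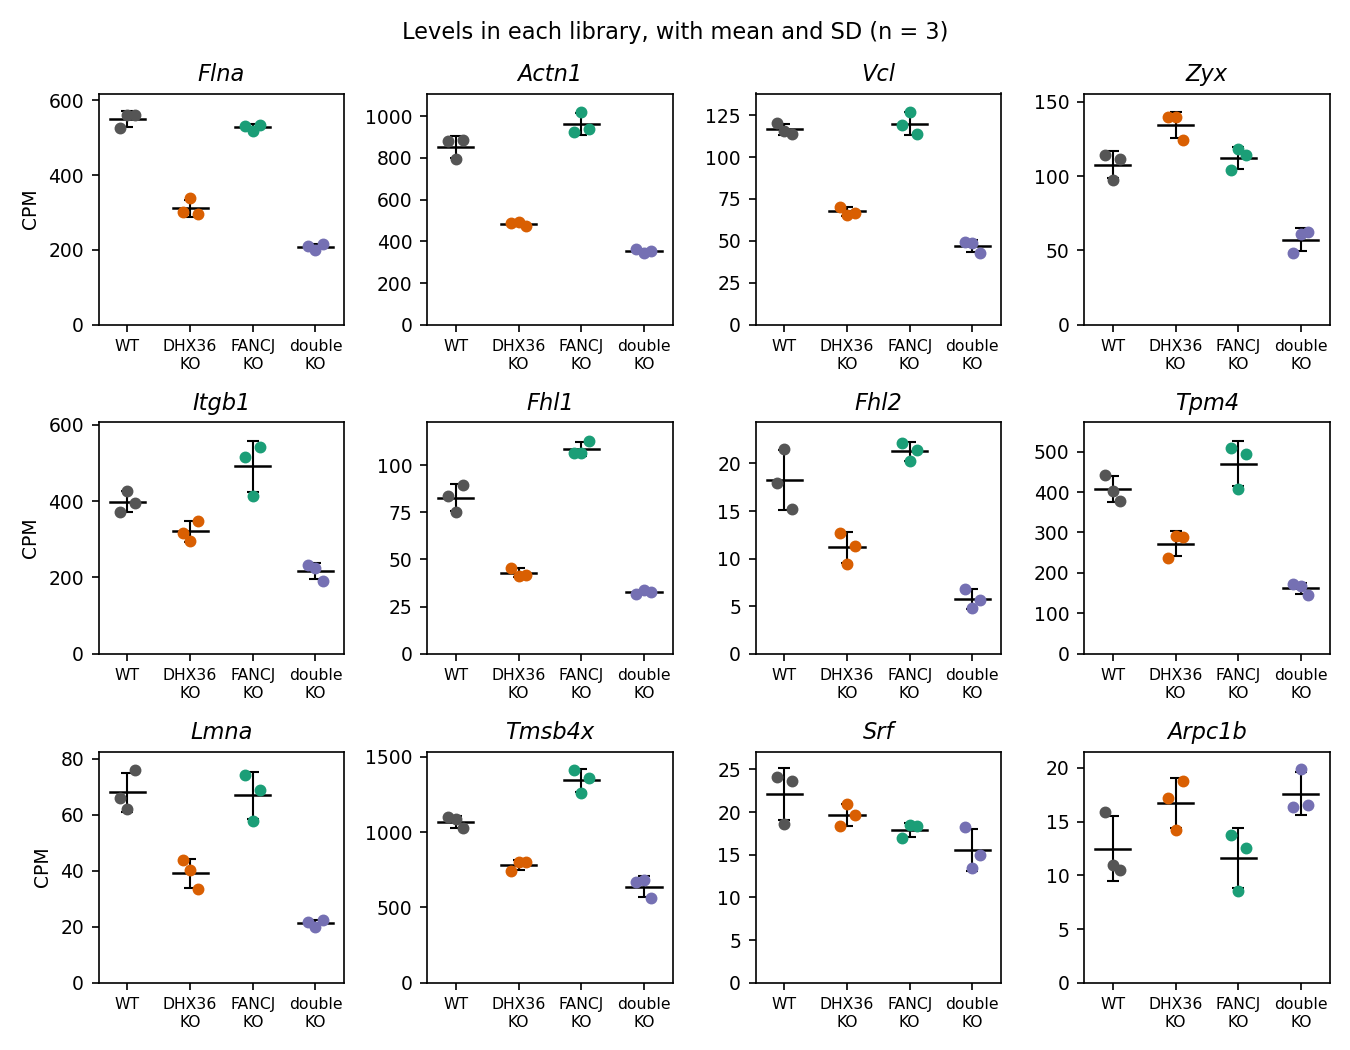
CPM of 12 of the genes in each library (points) by genotype, with the mean (horizontal bar) and SD (error bar, n = 3), each panel on its own linear axis from 0. Zyx is highest in DHX36 KO and lowest in the double knockout, and Fhl1 and Tmsb4x are highest in FANCJ KO. Arpc1b has its highest mean in the double knockout (17.6 ± 2.01 CPM), whose libraries overlap those of DHX36 KO (16.7 ± 2.32 CPM).

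Loss of FANCJ was followed by few calls in cells with DHX36 and by many falls in cells without it. In cells with DHX36, 28 of 43 members were above 0 and 15 below, and the 3 that rose were Fhl1 (0.39, SE 0.09), Myh10 (0.36, SE 0.09) and Tmsb4x (0.33, SE 0.08). These calls were close to the threshold. That of Fhl1 was lost without wild-type libraries 1 or 2 (0.0622 and 0.120) or FANCJ KO libraries 1 or 3 (0.0638 and 0.0844), that of Myh10 without wild-type libraries 1, 2 or 3 (0.0736, 0.0592 and 0.173) or FANCJ KO libraries 1, 2 or 3 (0.111, 0.0522 and 0.178), and that of Tmsb4x without wild-type libraries 1, 2 or 3 (0.0853, 0.0896 and 0.117) or FANCJ KO libraries 1 or 3 (0.157 and 0.110). All 3 were lost with only those genotypes fitted (adjusted p = 0.0543, 0.0979 and 0.0551), and Myh10 and Tmsb4x with a replicate block (adjusted p = 0.0729 and 0.0560), Tmsb4x also at equal depth (adjusted p = 0.0570). Leaving out wild-type library 1 or 2 or FANCJ KO library 1 or 3 left 0 of 43 called up, leaving out wild-type library 3 left 1 and leaving out FANCJ KO library 2 gave 4. Without wild-type library 3 there was 1 call down. In cells that already lacked DHX36, the double knockout compared with DHX36 KO, 29 members fell and 0 rose (11.4% and 8.28% of all genes), with a median of -0.38. At an unadjusted p under 0.05, 32 differed, against 32% of all genes. DESeq2 called none up there either. Of the 29 that fell, 19 had a log2 fold change above 0 in the comparison of FANCJ knockout with wild type, which shares no library with it. That is 65.5% of them, against 48.9% of all genes that fell there, and it is near the share among all members, 28 of 43. Zyx (-1.23, SE 0.10), Fhl2 (-0.96, SE 0.17), Lmna (-0.87, SE 0.12) and Flnc (-0.83, SE 0.13) had the largest of these falls. Pxn, which had risen in DHX36 KO, was lower in the double knockout than there (-0.59, SE 0.14).

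The falls that went with loss of DHX36 were mostly larger in cells without FANCJ than in cells with it. Those of Lasp1 (-0.24 with FANCJ and -0.16 without) and Actn4 (-0.32 and -0.24) were smaller. Comparing the double knockout with FANCJ KO, 35 of 43 fell and 2 rose (18.5% and 18.3% of all genes), with a median of -0.65 against -0.28 for DHX36 loss with FANCJ present. The rises were Pxn (0.47, SE 0.15) and Arpc1b (0.61, SE 0.18). The Pxn call was lost without FANCJ KO libraries 1 or 2 (0.0536 and 0.0728) or double knockout library 3 (0.131), and that of Arpc1b without FANCJ KO library 2 (0.0948) or double knockout library 2 (0.0516) and at equal depth (adjusted p = 0.0778). These comparisons share no library: 25 members were called down in both, which is 96.2% of the 26 called with FANCJ and 71.4% of the 35 called without it. Over all genes 7.32% were called down in both, which is 63.0% of those called with FANCJ and 39.5% of those called without it. The exception on the first side was Lasp1. The largest falls without FANCJ were those of Fhl2 (-1.88, SE 0.16), Fhl1 (-1.73, SE 0.09), Lmna (-1.65, SE 0.12), Anxa2 (-1.64, SE 0.16) and Tpm4 (-1.54, SE 0.10).

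The difference between these effects was tested directly as the interaction, the log2 fold change of DHX36 loss without FANCJ minus that with FANCJ. It was called for 23 of 43 members, all of them negative, where 6.06% of all genes were called negative and 2.73% positive. The median of the 43 was -0.52, against 0.00051 over all genes. Positive calls numbered 0, with DESeq2 as well, and 27 members had an unadjusted p under 0.05, counting both signs, against 22.7% of all genes. The largest differences were those of Zyx (-1.29, SE 0.14, adjusted p = 4.3e-06), Fhl2 (-1.17, SE 0.23, adjusted p = 0.00213) and Flnc (-1.11, SE 0.18, adjusted p = 4.0e-04), followed by Tpm4 (-0.95, SE 0.14) and Capg (-0.91, SE 0.22). For 16 of the 23 members DHX36 loss with FANCJ was itself called down, and the fall without FANCJ was the larger. The other 7 were Capg, Flnc, Rhob, Rhoc, S100a6, Tmsb10 and Zyx. For them DHX36 loss with FANCJ was not called down, and 2 of them, Capg and Zyx, had risen. By role, the interaction was called for 5 of 6 membrane genes, 3 of 4 crosslinkers, 5 of 9 myosin and filament genes, 3 of 6 LIM genes, 3 of 8 adhesion genes, 3 of 8 turnover genes and Lmna. Rhoc (-0.71, SE 0.19) lost its call without DHX36 KO library 1 (0.0584), FANCJ KO library 3 (0.0576) or double knockout library 2 (0.0605), Anxa2 (-0.88, SE 0.22) without DHX36 KO library 1 (0.0525), and Myh9 (-0.60, SE 0.13) at equal depth (adjusted p = 0.0538). Csrp1, which had the largest fall in DHX36 KO, was not called (-0.26, SE 0.16, adjusted p = 0.371), nor were Myl12a (-0.33, SE 0.12, adjusted p = 0.0850) and Srf (-0.034, SE 0.20, adjusted p = 0.945).

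**Figure D4:**
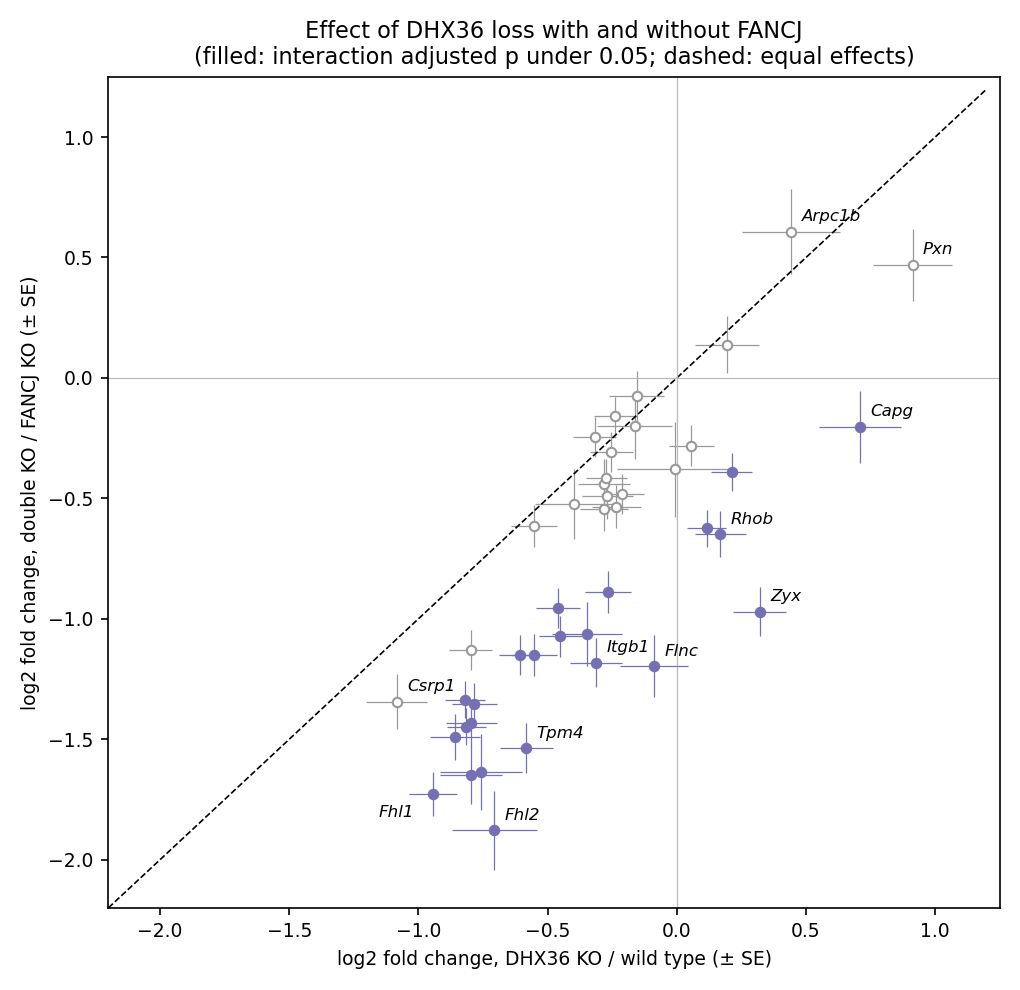
Log2 fold change of DHX36 loss in cells with FANCJ (horizontal axis, DHX36 knockout over wild type) and in cells without it (vertical axis, double knockout over FANCJ knockout) for the 43 genes, with standard errors. The 23 filled points, called in the interaction, lie below the dashed line of equal effects, with Zyx (0.32 and -0.97), Flnc (-0.088 and -1.20) and Fhl2 (-0.71 and -1.88) farthest from it.

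A longer list of the same machinery, 122 genes that are not among the 43, of which 116 were tested, also fell more often than it rose without DHX36. This list, too, was chosen with earlier results of these data known, so its shares are no independent check. In DHX36 KO 44 fell and 11 rose (37.9% and 9.48% of the 116, against 11.6% and 12.8% of all genes), with a median of -0.24. In FANCJ KO 0 fell and 2 rose (1.72%, near the 1.45% of all genes), and 25 had an unadjusted p under 0.05 (21.6% against 15%). In the double knockout 55 fell and 10 rose (47.4% and 8.62%, against 17.3% and 16.6%), with a median of -0.27. The interaction was called down for 20 and up for 2 (17.2% and 1.72%, against 6.06% and 2.73%). Falls included the tropomyosin Tpm2 (-1.06, SE 0.14 in DHX36 KO and -1.87, SE 0.14 in the double knockout) and the adhesion adaptor Parva (-0.99, SE 0.11 and -1.61, SE 0.11). Cnn2, a calponin, went from 166 ± 7.26 to 48.6 ± 6.20 CPM (SD, n = 3) in the double knockout. Parvb, the paralogue of Parva, moved the other way, 0.89 (SE 0.12) and 1.11 (SE 0.11), as did the adhesion GTPase regulator Git2 (0.55, SE 0.11 and 0.64, SE 0.11). The filament-severing gelsolin gene Gsn rose in FANCJ KO (0.63, SE 0.13) and fell in the double knockout (-1.28, SE 0.14). Parva, too, rose in FANCJ KO (0.44, SE 0.11).

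Some markers of other cell types moved with these genes. The summed CPM of 9 smooth muscle markers was 687 to 848 in wild type, 321 to 369 in DHX36 KO, 1017 to 1059 in FANCJ KO and 141 to 155 in the double knockout. Acta2 and Tagln carried most of it, at 314 to 388 and 269 to 356 CPM in wild type and 40.3 to 49.2 and 58.6 to 67.3 in the double knockout, and both are also known SRF targets. Myh11, which defines mature smooth muscle, was at 0 to 0.707 CPM in wild type and 0.338 to 0.798 in the double knockout. Of the 7 smooth muscle markers tested, 4 fell in DHX36 KO, 3 rose in FANCJ KO and 4 fell in the double knockout. The 12 trophoblast markers summed to 865 to 1025, 525 to 599, 1079 to 1127 and 356 to 393 CPM in the same order of genotypes, mostly Krt8 and Krt18, with Tpbpa and Prl3d1 at 0 counts in every library. Of 9 tested, 5 fell and 2 (Eomes and Hand1) rose in DHX36 KO, 2 rose in FANCJ KO, and 5 fell and 3 rose in the double knockout. The 3 rises there were those of Eomes (log2 fold change 0.57), Hand1 (0.54) and Ascl2 (1.00). The 5 falls were those of Cdx2, Tfap2a, Krt7, Krt8 and Krt18. The 13 fibroblast markers summed to 138 to 144 CPM in wild type, 130.0 to 135 in DHX36 KO, 140.1 to 151 in FANCJ KO and 59.0 to 66.3 in the double knockout, with Dcn at 0 to 0.234 and Lum at 0 to 0.177 CPM in wild type. Of 10 tested, 1 fell and 2 rose in DHX36 KO, and 5 fell and 1 rose in the double knockout. The 16 primitive endoderm markers were at 639 to 765, 616 to 638, 876 to 904 and 599 to 643 CPM. Sparc and Lamc1 made up most of this sum. Of 14 tested, 4 fell and 2 rose in DHX36 KO, 7 rose in FANCJ KO, and 3 fell and 4 rose in the double knockout. The 4 rises there were those of Sox17 (log2 fold change 1.96), Gata6 (1.83), Pdgfra (2.05) and Amn (1.46), with means of 0.658 to 2.59 CPM in wild type. The 3 falls were those of Col4a1 (-0.85), Col4a2 (-1.12) and Lamb1 (-0.64). Stem cell markers went the other way from the smooth muscle and trophoblast sums, with 4610.3 to 4714, 5248 to 5531, 4166 to 4374 and 6475 to 6522 CPM. Of the 10 tested, 4 rose in DHX36 KO and 8 in the double knockout. The part of the smooth muscle, trophoblast, fibroblast, primitive endoderm and stem cell markers in the changes of the 43 genes was not tested.

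**Figure D5:**
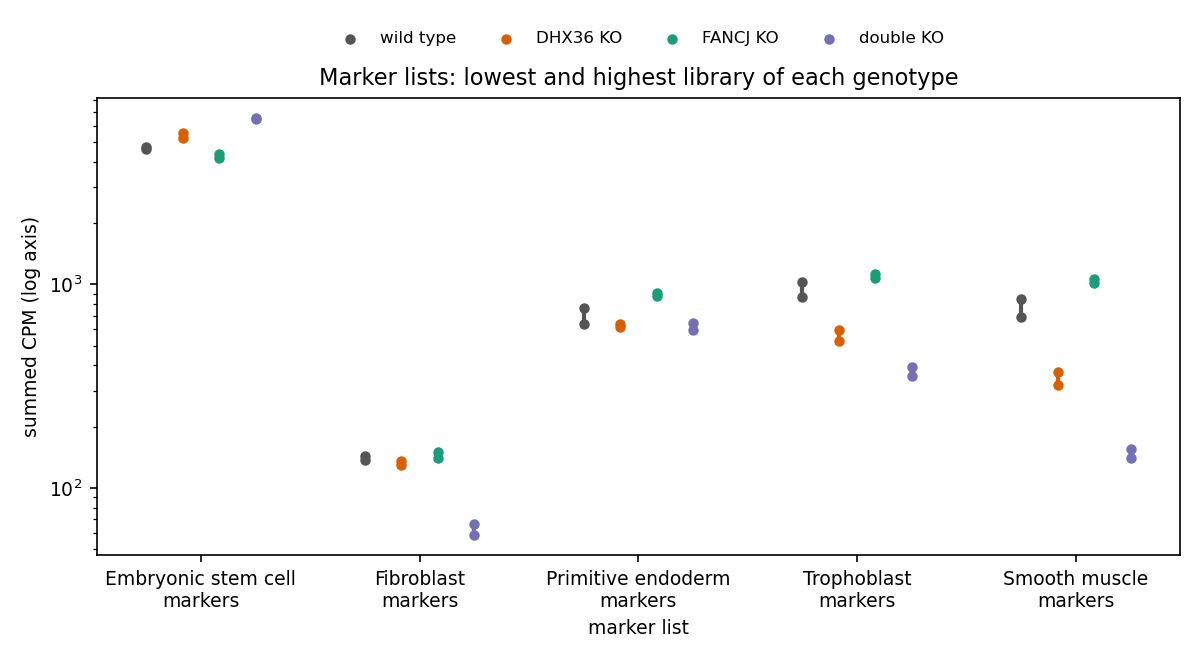
Summed CPM (log axis) of 5 marker lists by genotype, drawn as the lowest and the highest of the 3 libraries of each genotype joined by a line. The smooth muscle and trophoblast sums fall in the order FANCJ knockout, wild type, DHX36 knockout and double knockout, and the stem cell sum is highest in the double knockout. The trophoblast sum is mostly Krt8 and Krt18.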

How the data were processed

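The values deposited by the authors are raw counts, whole numbers for each gene in each library. Per the labels' protocols, TRIzol lysates were made into libraries much like CEL-Seq2, which tags transcript 3′ ends, so counts were not divided by gene length. Levels of different genes were compared only to rank members by mean level and to name the main genes of marker sums. The submitters' processing notes name BWA, GRCm38 and hg38. The treatment of molecular identifiers, of strand and of reads with several alignments is not stated in the labels, and 18 of the 43 members overlap a gene on the opposite strand. The 92 spike-in rows were left out.

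All 12 libraries entered 1 edgeR 4.0.16 model (R 4.3.3) with genotype as its term: quasi-likelihood F tests, trimmed-mean normalisation, the default filter (12765 genes of 32285), two-sided, Benjamini-Hochberg adjustment over all genes, threshold 0.05. Standard errors follow from the fold change and F. The procedure was tested on simulated data. CPM use normalised totals of the tested genes. Alternatives were RLE size factors, DESeq2 1.42.0, no filter, only the genotypes compared, a replicate block, thinning to 4284785 counts and leaving out each library.

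The members and lists were chosen with earlier results of these data known. Library values are printed for Srf, up to 8 members with the largest called changes per comparison with wild type, and members called in the interaction; other listed genes are the up to 4 largest called changes in either direction at a mean of at least 20 CPM, of which some are named. Coordinates are GENCODE M21 (GRCm38).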

Additional observations from a re-analysis of the deposited data

Results flagged for a closer look

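For 23 of the 43 genes the effect of DHX36 loss differed between cells with and without FANCJ by the interaction test of edgeR (adjusted p under 0.05). The interaction was negative in every case. The interaction, on the log2 scale, was -1.29 for Zyx, -1.17 for Fhl2, -1.11 for Flnc, -0.95 for Tpm4, -0.91 for Capg, -0.88 for Anxa2, -0.87 for Itgb1 and -0.85 for Lmna. It was -0.82 for Rhob, -0.79 for Fhl1, -0.74 for S100a6, -0.71 for Rhoc, -0.64 for Pdlim7, -0.63 for Actn1, -0.63 for Cald1, -0.62 for Tagln2 and -0.62 for Tmsb4x. The remaining values were -0.60 for Tmsb10, -0.60 for Myh9, -0.57 for Vcl, -0.54 for Myl6, -0.52 for Flna and -0.50 for Msn. Zyx and Capg were the members of this group that had risen in DHX36 KO. For Capg the rise was 0.71, and its double knockout was near wild type (-0.021, adjusted p = 0.935 by edgeR).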

How the results depend on the processing

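Over the 6 comparisons, 157 calls of single members were made. DESeq2 and RLE size factors kept all 157, no filter kept 155, the replicate block 154 and equal depth 148, and 129 of 134 were kept with only the genotypes compared. No call reversed under any alternative run. Leaving out 1 library lost 3 to 14 calls of those that use it. Counts of members called changed by more than 1.5 times as follows. Called up in FANCJ KO (3), members numbered 5 with no filter, 0 with only those genotypes, 1 with the replicate block, and 0 to 4 with 1 library left out. Called down there (0), they numbered 0 to 1 with 1 library left out. Called up in the double knockout against wild type (1), they numbered 2 with no filter, 0 at equal depth and 0 to 1 with 1 library left out. Called up in the double knockout against FANCJ KO (2), they numbered 1 at equal depth and 0 to 2 with 1 library left out. With 1 library left out, members called down numbered 18 to 23 in DHX36 KO, 31 to 35 in the double knockout and 21 to 25 in the interaction.

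Same-numbered libraries did not deviate together (correlations of -0.118 to 0.120 between genotypes, and 4 of 12 libraries closest to their own number), so the numbers were not taken to pair the samples. Allowing loops of up to 12 bases raised the members with a promoter G-quadruplex motif from 21 to 27. Low members such as Itga5, Capg, Arpc1b, Fhl2 and Srf carry more counting error, most in the shallow wild-type libraries.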
